A study of Mus musculus with 18 samples.

Results

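The genes described are 9 components and regulators of the complement system, *C1qa*, *C1qb*, *C4b*, *C3*, *Cfb*, *Cfp*, *Serping1*, *Cd55* and *Cd59a*, taken from the deposited tables by matching each Ensembl identifier to its symbol. They are 9 of 55029 genes in 1 set of libraries and of 54232 in the other. RNA of mouse eosinophils was measured in 18 libraries, and all 9 genes passed the filter on low counts in both sets. The cells came from the peritoneal cavity of C57BL/6 mice that carry the NJ.1638 *Il5* transgene, which raises eosinophil numbers, and were enriched by negative selection against Thy1.2 and B220. Eosinophils of all groups thus shared the transgene, and no library came from mice without it. They were cultured for 18 h with heat-inactivated *E. coli*, with IFN-γ, with IFN-γ and *E. coli* together, with IL-4, or without stimulus. Each of the 4 stimuli has 3 libraries, and 6 libraries are unstimulated.

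Complement is a cascade of plasma and membrane proteins that marks particles for uptake and can form pores in membranes. C1q, made of A, B and C chains, starts the classical pathway and C4 carries it on; C3 is the component on which all pathways meet, and factor B and properdin belong to the alternative pathway. Host cells hold the cascade back with the C1 inhibitor (*Serping1*), with decay-accelerating factor (*Cd55*) and with CD59, which blocks the membrane pore. Macrophages are a well-known source of C1q.

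The libraries fall into 2 sets by the layout of their files. The 12-library set holds *E. coli*, IFN-γ, both stimuli and unstimulated libraries a to c, with 1523808 to 2734041 counts on genes per library. The 6-library set holds IL-4 and unstimulated libraries d to f, with 3625036 to 6482289 counts. No gene exceeded 4095 counts in any of the 12 libraries, and the highest gene of each of them reached 4089 or more, whereas the highest gene in the 6-library set had 191131 counts. The highest count of any of the 9 genes in the 12-library set was 728, under this ceiling. Levels were therefore compared only within a set. They are CPM, counts scaled to a common normalized library size, given as mean ± SD of 3 libraries. A count of 3 was the smallest taken to differ from 0. It equals 1.10 to 1.97 CPM of the library total in the 12-library set and 0.463 to 0.828 CPM in the 6-library set, and covers counting error only. Calls rest on the quasi-likelihood test of edgeR, with p-values adjusted by the Benjamini-Hochberg method over all genes tested and a threshold of 0.05. The study speaks of biological replicates, but neither it nor the labels say whether libraries of a group came from separate animals or cultures, so p-values measure the spread between these samples only.

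IFN-γ, alone or with *E. coli*, went with more *Serping1*, *C1qb*, *C3* and *C4b* RNA and less *Cd59a* RNA. In bulk samples fewer cells of a type and less RNA per cell cannot be told apart. *E. coli* alone went with less *C3*, *C4b* and *Cd59a*, and IL-4 with more *Serping1* and less *C4b*, *C1qb* and *Cd55*. With *E. coli*, 3 of the 9 genes were called, where 30.2% of all 9883 genes tested were. In edgeR 0 of them were higher (13.5% of all genes) and 3 lower (16.7%); at an unadjusted p under 0.05, 0 were higher, and DESeq2 called 0 higher and 1 lower. With IFN-γ 5 were called (31.6% of all genes), 4 higher (15.6%) and 1 lower (16%). With both stimuli 5 were called (49%), 4 higher (23.9%) and 1 lower (25.2%). With IL-4 4 were called (10.3% of the 10556 genes tested in that set), 1 higher (5.97%) and 3 lower (4.35%). None of the 4 calls with IL-4 passed the threshold without unstimulated library f or without IL-4 library 1, 2 or 3, and the adjusted p-values then lay between 0.0502 for *C4b* and 0.191 for *C1qb*. Of all genes, 483 to 1394 were called for IL-4 with any 1 library left out, in place of 1089. With all libraries of the set DESeq2 called 1 of the 9 genes higher and 3 lower. The 3 comparisons of the 12-library set share unstimulated libraries a to c.

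**Figure D1:**
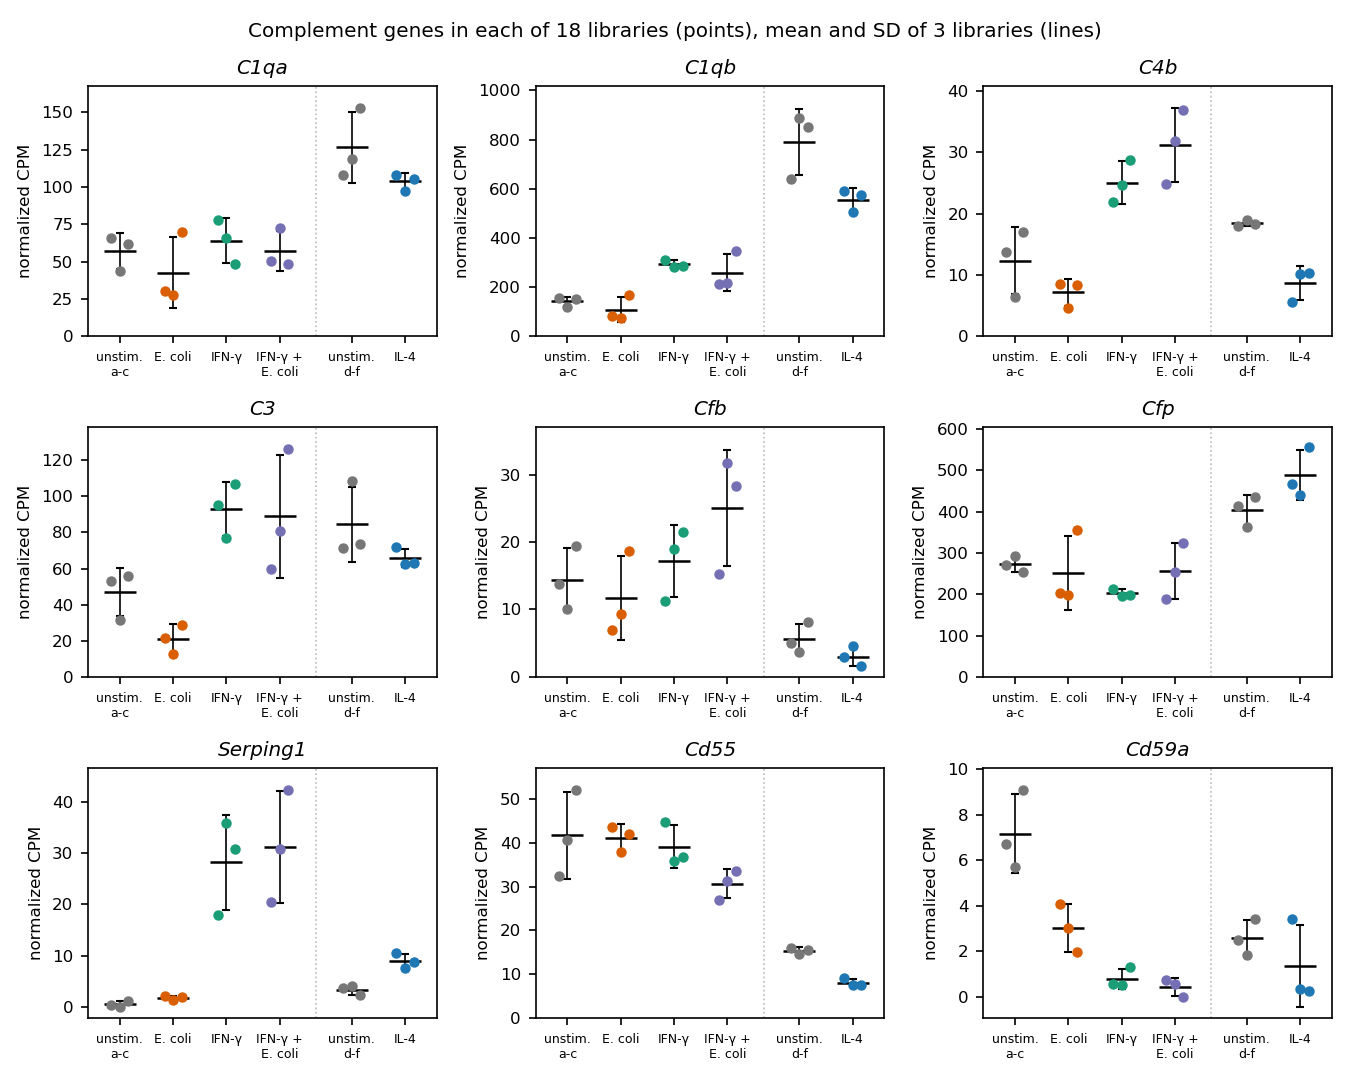
Levels of the 9 complement genes in normalized CPM (y axis) in each library (points) of the 6 groups (x axis), with the mean and SD of 3 libraries as black lines; a dotted line parts the 2 library sets, whose levels are not to be compared. *Serping1* stands at or under 1.24 CPM in unstimulated libraries a to c and between 17.9 and 42.2 CPM in the 6 libraries with IFN-γ, while *Cd59a* runs the other way.

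The median log2 fold change of the 9 genes was -0.42 with *E. coli*, beside -0.02 for all genes tested. It was 0.21 beside -0.03 with IFN-γ, 0.79 beside -0.04 with both stimuli and -0.51 beside 0.00 with IL-4. Setting genes at or under 3 counts to their bounds left these medians as they were. The libraries did not overlap for 3 of the 9 genes with *E. coli* (45.3% of all genes), 6 with IFN-γ (45.7%), 5 with both stimuli (54.1%) and 5 with IL-4 (31.3%).

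**Figure D2:**
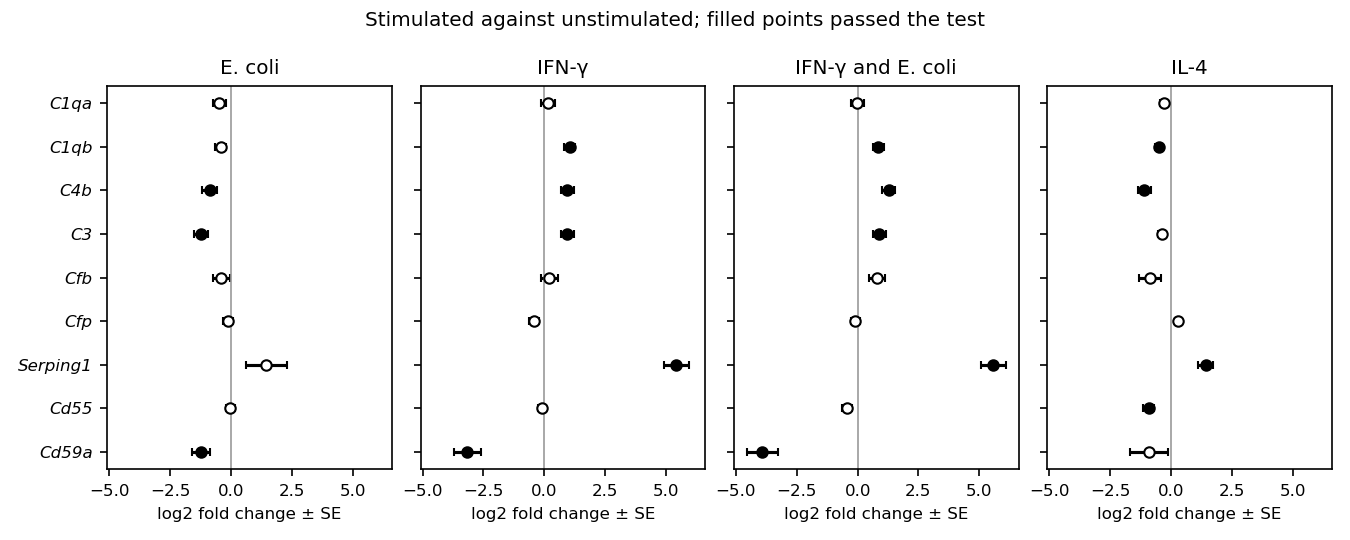
Log2 fold change (x axis) of each complement gene (y axis) with its approximate standard error, for each stimulus against the unstimulated libraries of its own set; filled points passed the test. *Serping1* lies furthest to the right with IFN-γ (5.42) and with both stimuli (5.57), and *Cd59a* furthest to the left (-3.16 and -3.92); these 4 fitted values depend on the prior count, since the low group was at or under 3 counts.

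*C1qa* (ENSMUSG00000036887, chromosome 4, 136895917 to 136898803 on GRCm38, minus strand) encodes the A chain of C1q. It stood at 66.0, 43.7 and 61.5 CPM in unstimulated libraries a to c, 30.6, 27.4 and 70.1 CPM with *E. coli*, 77.8, 66.1 and 48.4 CPM with IFN-γ and 50.4, 72.3 and 48.1 CPM with both stimuli. In the 6-library set it was at 108, 119 and 153 CPM without stimulus and 108, 97.2 and 106 CPM with IL-4. The groups overlapped throughout, and *C1qa* was called with none of the 4 stimuli (adjusted p = 0.21, 0.708, 0.979 and 0.259 in edgeR for *E. coli*, IFN-γ, both and IL-4). The log2 fold changes were -0.48 (standard error 0.28), 0.15 (0.27), -0.01 (0.28) and -0.29 (0.15).

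*C1qb* (ENSMUSG00000036905, chromosome 4, 136880129 to 136886187, minus strand) encodes the B chain and lies on the same strand as *C1qa*. Its levels were 156, 120 and 151 CPM in unstimulated libraries a to c, 82.8, 76.2 and 166 CPM with *E. coli*, 312, 284 and 288 CPM with IFN-γ and 213, 218 and 346 CPM with both stimuli. All 6 libraries with IFN-γ lay above every unstimulated and every *E. coli* library. The rise was 1.04 on the log2 scale with IFN-γ (standard error 0.23, adjusted p = 0.0016 in edgeR) and 0.85 with both stimuli (standard error 0.23, adjusted p = 0.00436), from 143 ± 19.3 to 295 ± 15.4 and 259 ± 75.6 CPM. In unstimulated libraries d to f *C1qb* was at 638, 888 and 850 CPM and 592, 504 and 573 CPM with IL-4, without overlap. That fall, -0.51 (standard error 0.14, adjusted p = 0.0469 in edgeR), was the closest to the threshold of the calls with IL-4. It was not called in the model of all 18 libraries (adjusted p = 0.103), nor without unstimulated library f (0.125) or IL-4 library 1 (0.13), 2 (0.191) or 3 (0.116). Over the alternatives its adjusted p ranged from 0.00322 to 0.191.

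The C chain gene *C1qc*, one of 46 other complement genes listed and also a gene of the macrophage list, stood at 230 ± 38.8 CPM in unstimulated libraries a to c, 162 ± 71.4 CPM with *E. coli*, 279 ± 20.7 CPM with IFN-γ and 304 ± 37.7 CPM with both stimuli. With *E. coli* its log2 fold change of -0.53 was not called (adjusted p = 0.0607 in edgeR), except without a filter on low counts (0.00246), without unstimulated library b (0.0405) or without *E. coli* library 3 (1.1e-04), and the largest adjusted p over the alternatives was 0.302. The log2 fold changes of 0.27 with IFN-γ and 0.39 with both stimuli were not called (adjusted p = 0.336 and 0.119 in edgeR), although the latter was called without a filter on low counts (0.0118) and in a fit of these groups alone (0.0474; at most 0.296). Against *E. coli*, *C1qc* was higher by 0.80 with IFN-γ (standard error 0.21, adjusted p = 0.00716) and by 0.92 with both stimuli (standard error 0.21, adjusted p = 0.00207) on the log2 scale, in both cases without overlap. The ratio of counts between C1q chains within a library was looked at after these values were seen. There were 0.593, 0.642 and 0.630 counts of *C1qb* for each count of *C1qc* without stimulus and 0.649, 0.665 and 0.681 with *E. coli*. With IFN-γ there were 1.15, 0.939 and 1.09, and with both stimuli 0.820, 0.668 and 1.06. The libraries with IFN-γ alone had the higher ratios and did not overlap with unstimulated or *E. coli* libraries, while 1 library with both stimuli lay within the *E. coli* range. For *C1qa* against *C1qc* the mean ratio was 0.247 ± 0.0121 without stimulus and 0.230 ± 0.0527 with IFN-γ, and these libraries overlapped. With both stimuli it was 0.194, 0.222 and 0.148, below all of 0.250, 0.233 and 0.256 in the unstimulated libraries. Among the other 6 libraries the ratio of *C1qb* to *C1qc* was 0.862, 1.27 and 0.832 without stimulus and 0.807, 0.695 and 0.636 with IL-4.

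*C4b* (ENSMUSG00000073418, chromosome 17, 34728380 to 34743882, minus strand) encodes component C4 of the classical and lectin pathways. It was at 13.8, 6.34 and 16.9 CPM in unstimulated libraries a to c, 8.57, 4.68 and 8.39 CPM with *E. coli*, 21.8, 24.6 and 28.8 CPM with IFN-γ and 24.8, 31.8 and 36.9 CPM with both stimuli. The libraries with IFN-γ were the highest and did not overlap with the others, whereas *E. coli* and unstimulated libraries overlapped through unstimulated library b. The log2 fold change was 0.95 with IFN-γ (standard error 0.28, adjusted p = 0.0134 in edgeR) and 1.27 with both stimuli (standard error 0.27, adjusted p = 7.25e-04). With *E. coli* it was -0.87 (standard error 0.32, adjusted p = 0.0459), and DESeq2 did not call it (adjusted p = 0.0705; range over the alternatives 0.00933 to 0.231). The call was lost in a fit of these groups alone (0.0799), without unstimulated library a (0.139) or c (0.231) and without *E. coli* library 1 (0.0526) or 2 (0.229), and that with IFN-γ without IFN-γ library 3 (0.051). With IL-4 *C4b* fell from 18.1, 19.1 and 18.3 CPM to 5.52, 10.1 and 10.4 CPM. Every IL-4 library was below every unstimulated library of its set (log2 fold change -1.10, standard error 0.26, adjusted p = 0.0228 in edgeR). It was not called without unstimulated library f (0.0584) or IL-4 library 1 (0.0817), 2 (0.0576) or 3 (0.0502). *C4b* shares 96.0% of 5378 aligned transcript bases with its neighbour *C4a*, so reads may have been split between these genes or lost. *C4a* itself stood at 4.76 ± 1.38 CPM in unstimulated libraries a to c and 1.23 ± 1.28 CPM with IFN-γ. It did not pass the filter on low counts in that set, so this difference was not tested. With IL-4 *C4a* was tested and not called (log2 fold change -0.91, adjusted p = 0.274 in edgeR).

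*C3* (ENSMUSG00000024164, chromosome 17, 57203970 to 57228136, minus strand) encodes the central component. Its levels were 53.3, 31.7 and 55.8 CPM in unstimulated libraries a, b and c, and 21.6, 12.7 and 29.1 CPM in the *E. coli* libraries. With IFN-γ they were 95.2, 76.9 and 107 CPM, and with both stimuli 59.9, 80.5 and 126 CPM. All *E. coli* libraries thus lay below, and all 6 libraries with IFN-γ above, the unstimulated ones. *C3* fell by 1.22 on the log2 scale with *E. coli* (standard error 0.29, adjusted p = 0.0035 in edgeR) and rose by 0.95 with IFN-γ (standard error 0.26, adjusted p = 0.00831) and by 0.89 with both stimuli (standard error 0.26, adjusted p = 0.00785). Without library 3 of both stimuli the latter rise was 0.58 and not called (adjusted p = 0.0562; range over the alternatives 5.73e-07 to 0.0562). With IL-4 *C3* was at 71.7, 62.8 and 63.0 CPM against 71.4, 108 and 73.8 CPM, the groups overlapped and it was not called (adjusted p = 0.233).

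The alternative pathway genes were called with no stimulus against unstimulated cells. *Cfb* (ENSMUSG00000090231, chromosome 17, 34856374 to 34862518, minus strand) encodes factor B, the protease of the alternative C3 convertase. It stood at 13.8, 10.1 and 19.4 CPM in the unstimulated libraries, 6.93, 9.36 and 18.8 CPM with *E. coli*, 11.2, 19.0 and 21.6 CPM with IFN-γ and 15.3, 31.8 and 28.4 CPM with both stimuli. These groups overlapped, although the 2 highest libraries were of both stimuli. The log2 fold change with both stimuli was 0.79 (standard error 0.34, adjusted p = 0.0596 in edgeR). It was called without a filter on low counts (adjusted p = 0.00727), in a fit of these groups alone (0.0435) and without unstimulated library c (0.0339) or library 1 of both stimuli (0.0157), and the largest adjusted p over the alternatives was 0.248. With IL-4 *Cfb* was at 2.96 ± 1.47 CPM against 5.59 ± 2.29 CPM and was not called (adjusted p = 0.268). *Cfb* shares 79.5% of its exon bases with *Gm20547*, a gene on the same strand that had 0 counts in all 18 libraries. Reads on shared bases are counted for neither gene under the counting mode the methods give, so *Cfb* levels may rest on the rest of the gene.

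*Cfp* (ENSMUSG00000001128, chromosome X, 20925454 to 20931555, minus strand) encodes properdin, which stabilizes that convertase. It was at 271, 293 and 255 CPM in unstimulated libraries a to c, 202, 199 and 355 CPM with *E. coli*, 213, 197 and 199 CPM with IFN-γ and 189, 254 and 324 CPM with both stimuli. The libraries with IFN-γ alone were all below the unstimulated ones, and the other groups overlapped with them. The log2 fold change of -0.42 with IFN-γ (standard error 0.19) was not called over all 12 libraries (adjusted p = 0.105 in edgeR). It was called in a fit of these 6 libraries alone (adjusted p = 0.0059) and without a filter on low counts (0.0214), and the largest adjusted p over the alternatives was 0.253. With IL-4 *Cfp* was at 467, 441 and 556 CPM, above all of 412, 362 and 435 CPM without stimulus, and it did not pass the test (0.28 on the log2 scale with a standard error of 0.13, adjusted p = 0.216).

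*Serping1* (ENSMUSG00000023224, chromosome 2, 84765387 to 84775444, minus strand) encodes the C1 inhibitor, which inactivates the proteases of the C1 complex. Its counts were 1, 0 and 3 in unstimulated libraries a, b and c, against 5, 4 and 4 with *E. coli*. With IFN-γ it had 32, 70 and 47 counts, or 17.9, 35.9 and 30.7 CPM, and with both stimuli 28, 56 and 64 counts, or 20.4, 30.7 and 42.2 CPM. The 6 libraries with IFN-γ were thus far above all others of the set. Against a floor of 3 counts per library, *Serping1* was at least 19.9-fold higher with IFN-γ (adjusted p = 2.07e-07 in edgeR). For both stimuli together the bound was at least 21.9-fold higher (adjusted p = 4.84e-08). With *E. coli* alone it was at 1.78 ± 0.388 CPM and not called (adjusted p = 0.216). Between IFN-γ and *E. coli* the log2 fold change was 3.97 (standard error 0.41, adjusted p = 5.57e-07). In the 6-library set *Serping1* was at 3.61, 4.14 and 2.27 CPM without stimulus and at 10.5, 7.64 and 8.81 CPM with IL-4. All IL-4 libraries were higher (log2 fold change 1.42, standard error 0.33, adjusted p = 0.021 in edgeR). The call was lost without unstimulated library f (0.0645) or IL-4 library 1 (0.111), 2 (0.0587) or 3 (0.072).

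*Cd55* (ENSMUSG00000026399, chromosome 1, 130439027 to 130462744, minus strand) encodes decay-accelerating factor, which takes apart C3 convertases on host membranes. It was at 41.7 ± 9.86 CPM in unstimulated libraries a to c, 41.1 ± 3.02 CPM with *E. coli* and 39.1 ± 4.94 CPM with IFN-γ. With both stimuli it was at 27.0, 31.2 and 33.6 CPM, against 32.4, 40.6 and 52.0 CPM without stimulus. These groups overlapped by 1 library on each side, and the log2 fold change of -0.44 (standard error 0.19) was not called (adjusted p = 0.0595 in edgeR), except without unstimulated library a (adjusted p = 0.014; largest over the alternatives 0.348). With IL-4 *Cd55* fell from 16.1, 14.6 and 15.5 CPM to 9.13, 7.64 and 7.52 CPM. The libraries did not overlap (log2 fold change -0.92, standard error 0.21, adjusted p = 0.0221 in edgeR), and the call was lost without unstimulated library f (0.057) or IL-4 library 1 (0.0645), 2 (0.0977) or 3 (0.0785). *Cd55b*, a copy with 98.4% identity over 379 bases, had 0 counts in all libraries, and 2.1% of *Cd55* exon bases lie opposite an antisense gene that also had 0 counts.

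*Cd59a* (ENSMUSG00000032679, chromosome 2, 104095801 to 104115354, plus strand) encodes the inhibitor of the membrane attack complex. It had 18, 9 and 22 counts in unstimulated libraries a to c, 10, 9 and 4 counts with *E. coli*, 1, 1 and 2 counts with IFN-γ and 1, 1 and 0 counts with both stimuli. In CPM, every *E. coli* library lay below every unstimulated library and above every library with IFN-γ. *Cd59a* was at least 4.15-fold lower with IFN-γ (adjusted p = 2.06e-04 in edgeR) and at least 3.70-fold lower with both stimuli (adjusted p = 5.09e-05), against a floor of 3 counts per library. With *E. coli* the log2 fold change was -1.23 (standard error 0.38, adjusted p = 0.0191), and DESeq2 did not call it (adjusted p = 0.125; range over the alternatives 0.0191 to 0.125). That call was lost without unstimulated library c (0.103), *E. coli* library 2 (0.0743) or *E. coli* library 3 (0.078), and without a filter on low counts (0.0512). In the 6-library set it had 9, 11 and 18 counts without stimulus and 18, 2 and 1 counts with IL-4. IL-4 library 1 stood apart from the other IL-4 libraries, at 3.42 CPM against 0.332 and 0.259 CPM. The log2 fold change of *Cd59a* with IL-4, -0.89 (standard error 0.78), was not called (adjusted p = 0.52 in edgeR). With 1 library left out it lay between -2.98 and -0.40, and the smallest adjusted p over the alternatives was 0.0813.

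Direct tests between IFN-γ and *E. coli* called 5 of the 9 genes (25.5% of all genes), 4 higher with IFN-γ (14.1%) and 1 lower (11.5%), and the libraries of 5 did not overlap (42.8%). *C3* was higher by 2.17 (standard error 0.28, adjusted p = 8.2e-06), *C4b* by 1.82 (0.30, adjusted p = 1.26e-04) and *C1qb* by 1.46 (0.23, adjusted p = 7.41e-05) on the log2 scale, with *Serping1* as given above. *Cd59a* was at least 1.75-fold lower (adjusted p = 0.03), and DESeq2 did not call it (adjusted p = 0.11; range over the alternatives 0.0263 to 0.122). Without *E. coli* library 1 (0.112) or 2 (0.068) or IFN-γ library 1 (0.102) or 2 (0.122), or without a filter on low counts (0.0576), it was not called. Adding IFN-γ to *E. coli* gave 6 calls (32.8%), 5 higher (17.5%) and 1 lower (15.3%), with no overlap for 6 (44.7%). The lower call was *Cd59a*, at least 1.56-fold lower (adjusted p = 0.00889), which DESeq2 did not call (0.054; range over the alternatives 0.00795 to 0.054). The higher calls included *Cfb*, higher by 1.17 (standard error 0.34, adjusted p = 0.0133) with overlapping libraries. That call was lost without *E. coli* library 1 (adjusted p = 0.0707), *E. coli* library 2 (0.0626) or library 2 of both stimuli (0.0908), and the smallest adjusted p over the alternatives was 1.04e-04. Adding *E. coli* to IFN-γ gave 0 calls among the 9 (12.2% of all genes), 0 higher (6.25%) and 0 lower (5.98%), with 0 genes at an unadjusted p under 0.05 in edgeR and 0 called by DESeq2. The libraries did not overlap for 1 gene, *Cd55* (28.1%). *Cd59a* was at or under 3 counts in all 6 libraries, so no fold is given for it. Of the other 8 genes *Cfb* had the largest log2 difference, 0.58 (standard error 0.34). That no gene was called does not show that the levels were alike.

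The interaction, which compares the log2 change with both stimuli to the single changes added up, was called for 0 of the 9 genes (4.62% of all genes, 2.58% higher and 2.04% lower). At an unadjusted p under 0.05 there were 2 higher in edgeR, and DESeq2 called 0. They were *C3* at 1.16 (standard error 0.38, adjusted p = 0.0972) and *C4b* at 1.2 (standard error 0.41, adjusted p = 0.111). Without a filter on low counts *C3* was called (adjusted p = 7.01e-04), as it was without *E. coli* library 3 (0.0302) or library 1 of both stimuli (0.0426), and the largest adjusted p over the alternatives was 0.294. *C4b* was called without unstimulated library b (adjusted p = 0.0343; largest 0.325). *Cfp*, at 0.46 with all libraries, was at 0.77 and called without *E. coli* library 3 (adjusted p = 0.038; largest 0.704).

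The response to IL-4 against that to IFN-γ and *E. coli*, each relative to its own unstimulated libraries, was called for 6 of the 9 genes (39.2% of all 10671 tested), lower for 5 (20.7%) and higher for 1 (18.5%). Side by side, the differences were -2.44 for *C4b* (standard error 0.39, adjusted p = 3.58e-05 in edgeR), -1.42 for *C1qb* (0.31, adjusted p = 8.42e-04), -1.32 for *C3* (0.35, adjusted p = 0.00457) and -1.69 for *Cfb* (0.58, adjusted p = 0.0251) on the log2 scale. The fitted -4.24 for *Serping1* (adjusted p = 3.98e-05) and 3.02 for *Cd59a* (adjusted p = 0.0487) depend on the prior count. Without IL-4 library 1 the *Cd59a* difference was 0.95 (adjusted p = 0.599; smallest over the alternatives 0.0159), and its call was also lost without each library of unstimulated a to c and of both stimuli and without unstimulated d or e (0.0539 to 0.122). DESeq2 did not call it either (0.0671). *Cd55* was called without unstimulated library c (-0.75, adjusted p = 0.0252; largest 0.445), in place of -0.54 with all libraries (0.112). That of *Cfb* was lost without unstimulated a (0.0534), b (0.0549) or f (0.104), library 2 (0.0737) or 3 (0.0503) of both stimuli, or IL-4 library 1 (0.0524) or 3 (0.0636). The stimuli and the library sets coincide in this comparison and cannot be told apart.

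Of the 46 other complement genes listed, 13 were tested in the 12-library set and 18 in the 6-library set. With *E. coli* 2 were higher and 2 lower (13.5% and 16.7% of all genes), with IFN-γ 1 and 1 (15.6% and 16%), with both stimuli 3 and 4 (23.9% and 25.2%), and with IL-4 2 and 4 (5.97% and 4.35%). Taken over both directions, the counts of 4, 2 and 7 of 13 in the 12-library set lay near or below the shares of all genes of 30.2%, 31.6% and 49%, and that of 6 of 18 with IL-4 stood beside 10.3%. *C1ra*, a protease of the C1 complex, was higher with *E. coli* (log2 fold change 0.54, adjusted p = 0.0208) and with IFN-γ (0.74, adjusted p = 0.00294 in edgeR). *Fcna*, a ficolin that starts the lectin pathway, rose from 98.7 ± 20.5 to 251 ± 60.0 CPM with both stimuli (log2 fold change 1.33, standard error 0.26, adjusted p = 2.87e-04) and fell with IL-4 from 214 ± 26.5 to 130 ± 8.88 CPM (-0.71, standard error 0.13, adjusted p = 0.00679). The *C1ra* call with *E. coli* was lost without unstimulated library a (0.116) or c (0.0545) or *E. coli* library 1 (0.134). The *Fcna* call with IL-4 was lost without IL-4 library 1 (0.0519) or 2 (0.0503).

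The receptors and membrane regulators named here are those that were called. *Cd93*, a C1q receptor candidate, was lower with *E. coli* (log2 fold change -1.26), IFN-γ (-2.74), both stimuli (-1.11) and IL-4 (-2.15), with adjusted p-values in edgeR of 0.00847, 1.14e-04, 0.0174 and 0.00896. Its interaction was 2.89 (standard error 0.63, adjusted p = 0.0115), and that of *Itgax* was -0.73 (standard error 0.17, adjusted p = 0.0194). *Itgax*, a chain of complement receptor 4, fell with both stimuli from between 284 and 334 CPM to between 143 and 191 CPM (-0.82, adjusted p = 2.72e-05) and rose with IL-4 from 343 ± 107 to 586 ± 29.9 CPM (0.77, adjusted p = 0.0276). *Itgam* and *Itgb2*, chains of complement receptor 3, were higher with both stimuli (0.55 and 0.35, adjusted p = 0.00189 and 0.041), and *Itgam* also with *E. coli* (0.39, adjusted p = 0.0292), where its counts of 3531 to 3922 came close to the ceiling of 4095. *Itgb2* had 2196 to 3399 counts over the 12 libraries, and its call was lost in a fit of these groups alone (0.084; range over the alternatives 0.00561 to 0.174). *Itgb2* was lower with IL-4 (-0.52, adjusted p = 0.037), *C5ar2* was higher with IL-4 (1.28, adjusted p = 0.0191), and *Cr1l*, a regulator of C3 convertases in mice, was lower with both stimuli (-0.45, adjusted p = 6.48e-04). *C1qbp* was also lower with both stimuli (-0.63, adjusted p = 0.0172). *Vsig4*, a receptor for C3 fragments that the macrophage list also holds, was lower with *E. coli* (-1.44, adjusted p = 0.0159) and IL-4 (-0.75, adjusted p = 0.0103).

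Several of these receptor and regulator calls depended on a library. With *E. coli*, that of *Itgam* was lost without unstimulated library a (adjusted p = 0.128) or c (0.0645) or *E. coli* library 1 (0.0809) or 3 (0.119), that of *Vsig4* without unstimulated library a (0.0798) or *E. coli* library 1 (0.0515) or 2 (0.07), and that of *Cd93* without *E. coli* library 1 (0.054). With both stimuli, *Itgb2* was not called without unstimulated library a (0.174) or c (0.114) or library 1 (0.0815) or 3 (0.119) of both, *C1qbp* without unstimulated library b (0.0556) or library 2 of both (0.149), and *Cd93* without library 2 of both (0.132) or by DESeq2 (0.0541). With IL-4, *C5ar2*, *Itgb2* and *Itgax* were not called without IL-4 library 1 (0.0519, 0.146 and 0.0776), 2 (0.106, 0.121 and 0.101) or 3 (0.0725, 0.119 and 0.107). *Itgax* was also not called without unstimulated library d (0.0593) or f (0.0987), *Vsig4* without IL-4 library 1 (0.0569) or 2 (0.063), and *Cd93* without IL-4 library 2 (0.0552).

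Of the 12 eosinophil genes listed, *Alox15* or *Ccr3* was the most abundant in every library. *Ear1*, *Ear2*, *Epx* and *Prg3* of this list did not pass the filter on low counts in the 12-library set. The 12 genes summed to 4493, 5949 and 4597 CPM in unstimulated libraries a, b and c, 4350, 3861 and 4320 CPM with *E. coli*, 4687, 4222 and 5007 CPM with IFN-γ and 3952, 3521 and 3744 CPM with both stimuli. Every library with *E. coli*, alone or with IFN-γ, thus lay below every unstimulated one, while the IFN-γ libraries overlapped with them. *Alox15* reached 3732 counts and *Ccr3* 3576 in this set, near the ceiling of 4095. Of 8 genes tested, 2 were called higher and 2 lower with *E. coli* (13.5% and 16.7% of all genes). With IFN-γ 1 was higher and 5 lower (15.6% and 16%), and with both stimuli 2 were higher and 5 lower (23.9% and 25.2%). In the IL-4 libraries the sum was 5463, 5702 and 5624 CPM against 5591, 6608 and 5673 CPM without stimulus, with overlap. With IL-4 4 of 12 genes were called higher and 1 lower (5.97% and 4.35% of all genes). The part of these shifts in the levels of complement genes was not tested. *Prg3* was at or under 3 counts in every library of the 12-library set. The study checked eosinophil purity by flow cytometry and describes the contaminating cells as mostly lymphocytes. The 15 genes of the macrophage list were also present. They summed to 2729, 2756 and 2782 CPM in unstimulated libraries a to c, 2078, 1899 and 2733 CPM with *E. coli*, 3208, 3060 and 3463 CPM with IFN-γ and 2779, 2851 and 3494 CPM with both stimuli. In the 6-library set the sums were 3684, 3940 and 4596 CPM without stimulus and 2785, 2817 and 3296 CPM with IL-4. All libraries with IFN-γ alone lay above the unstimulated ones, *E. coli* libraries 1 and 2 lay below them with library 3 among them, and the IL-4 libraries lay below their unstimulated ones without overlap. *Adgre1* or *Lyz2* was the most abundant gene in each library, and no gene of the list was at 0 throughout a set. *Adgre1* alone gave 1032, 916 and 1084 CPM with *E. coli* and 1112, 1101 and 1365 CPM with IFN-γ, a large part of these sums. Which cells held the RNA of the listed genes was not tested, so the sums do not measure macrophage content.

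**Figure D3:**
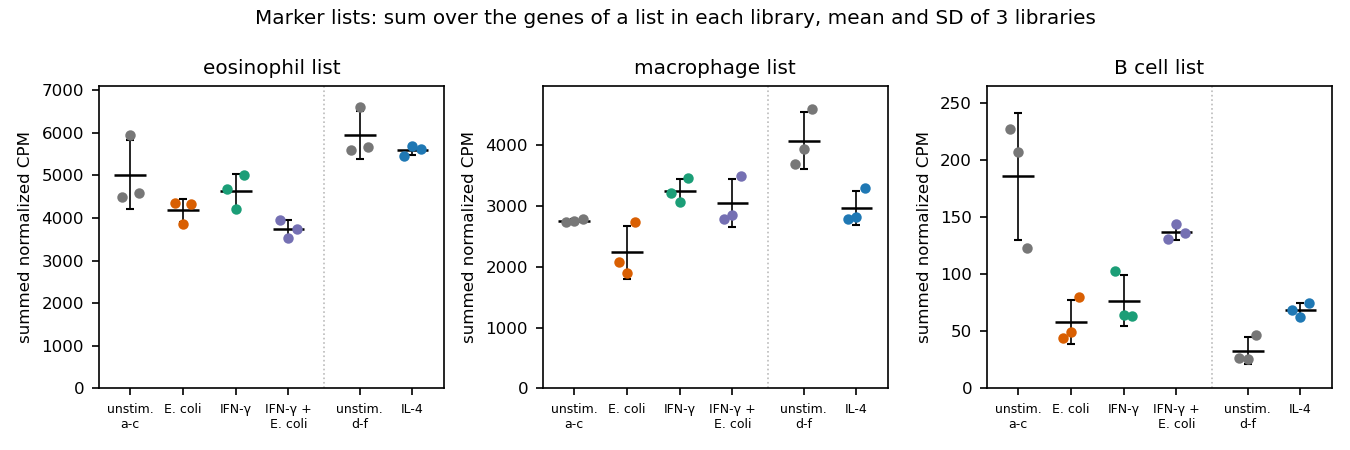
Sum of normalized CPM (y axis) over the genes of the eosinophil, macrophage and B cell lists in each library (points) of the 6 groups (x axis), with the mean and SD of 3 libraries as black lines and a dotted line between the library sets. The macrophage sum is 1899 to 2733 CPM with *E. coli* and 3060 to 3463 CPM with IFN-γ.

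Within the macrophage list, 13 genes were tested in the 12-library set and 14 in the 6-library set, and the genes named here were chosen after their values were seen. With *E. coli* 6 were called (30.2% of all genes), each of them lower (16.7%). Among them were *Timd4* (log2 fold change -1.62, adjusted p = 6.41e-05) and *Cd5l* (-1.35, adjusted p = 7.24e-04 in edgeR). With IFN-γ 3 were higher (15.6% of all genes) and 2 lower (16%), with *Mertk* at 1.42 (adjusted p = 0.00536). With both stimuli 2 were higher (23.9% of all genes) and 4 lower (25.2%), and with IL-4 6 were called (10.3%), each of them lower (4.35%). Another 3 genes of the list were higher with IL-4 at an unadjusted p under 0.05 without passing the test, among them *Timd4* (0.53, adjusted p = 0.0856), whose libraries did not overlap, and *Mrc1* (1.31, adjusted p = 0.179). Several of these calls depended on a library or tool. With IFN-γ, *Adgre1* was not called without unstimulated library a (0.123) or c (0.0514) or IFN-γ library 3 (0.115), nor *Csf1r* without unstimulated library a (0.0944) or c (0.0679) or IFN-γ library 1 (0.0845), and *Gata6*, 1 of the 2 lower, was not called by DESeq2 (0.0785) or without any library of these groups other than unstimulated b (0.103 to 0.234). With both stimuli, *Cd5l* and *Cd68* were not called by DESeq2 (0.0675 and 0.0653), without unstimulated library c (0.153 and 0.119) or without library 1 (0.0501 and 0.199) or 2 (0.137 and 0.135) of both, and *Cd68* also with DESeq2 size factors (0.0524) and without unstimulated library a (0.092). With IL-4, *Cd68*, *Csf1r*, *Lyz2* and *Vsig4* were not called without IL-4 library 1 (0.0605, 0.0807, 0.126 and 0.0569) or 2 (0.0584, 0.0677, 0.116 and 0.063), and *Lyz2* also without unstimulated library f (0.0616). Between stimuli, 7 of the 13 genes were called for IFN-γ against *E. coli*, each higher (14.1% of all genes). For both stimuli against *E. coli* 4 were higher (17.5%) and 1 lower (15.3%). The part of macrophages in the levels of *C1qa*, *C1qb*, *C3* and *C4b* was not tested.

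*E. coli* library 3 had the highest macrophage sum of its group and also the highest *C1qa*, *C1qb*, *C3*, *Cfb* and *Cfp*. *C4b* was highest in library 1, and *Cd59a* was lowest in library 3. The macrophage sum includes *C1qc*, which had 495 counts in library 3 against 313 and 343 in the other *E. coli* libraries, so it is not independent of the C1q genes. With any 1 library left out, 2160 to 2753 of all genes were called in either direction with *E. coli*, in place of 2986. Without *E. coli* library 3, 5 of the 9 genes were called lower with *E. coli*, in place of 3. *C1qa* was then at -0.99 (adjusted p = 0.00228; 0.642 at most over the alternatives), *C1qb* at -0.84 (0.00178; at most 0.593) and *Cfp* at -0.44 (0.0469; at most 0.958) on the log2 scale, and *Cd59a* was no longer called (0.078). IFN-γ against *E. coli* was then called for 7 genes in place of 5, with *C1qa* (1.15, adjusted p = 6.33e-04) and *Cfb* (adjusted p = 0.0394; at most 0.584) added, and both stimuli against *E. coli* for 7 in place of 6, with *C1qa* added (0.99 in place of 0.47, adjusted p = 0.00252; at most 0.65). Of all genes, 1983 to 2270 were called in IFN-γ against *E. coli* with any 1 library left out, in place of 2525. For both stimuli against *E. coli* these were 2519 to 3012, in place of 3240. With all libraries but no filter on low counts, *C1qb* was called lower with *E. coli* (-0.38, adjusted p = 0.0388) and *C1qa* higher in IFN-γ against *E. coli* (0.63, adjusted p = 0.00287; at most 0.405).

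Of the other cell types, B cell genes summed to 25.3 to 227 CPM with *Ighm* the most abundant. Their sum was 186 ± 55.5 CPM in unstimulated libraries a to c and 57.9 ± 19.3 CPM with *E. coli*, where all 5 tested were called lower (16.7% of all genes). They summed to 76.6 ± 22.3 CPM with IFN-γ (4 of 5 lower, beside 16% of all genes) and 137 ± 6.74 CPM with both stimuli. Unstimulated libraries d to f had 25.3 to 46.8 CPM and the IL-4 libraries 62.5 to 74.9 CPM (3 of 4 higher, beside 5.97% of all genes), with *Fcer2a* at 0 counts. Neutrophil genes, led by *Mmp9*, summed to 206, 331 and 310 CPM in unstimulated libraries a, b and c, 297, 256 and 373 CPM with *E. coli*, 511, 503 and 554 CPM with IFN-γ and 351, 335 and 437 CPM with both stimuli. All 3 genes tested were called higher with IFN-γ (15.6% of all genes), 2 with both stimuli (23.9%) and 1 with *E. coli* (13.5%). Unstimulated libraries d to f had 165, 265 and 172 CPM and the IL-4 libraries 46.8, 55.0 and 60.7 CPM, below them without overlap, with *Mmp9* as the only 1 of 4 genes called lower (4.35% of all genes). *Mmp9* alone was at 147, 246 and 153 CPM without IL-4 and at 32.1, 37.9 and 35.8 CPM with it, and *S100a8* (-0.71, adjusted p = 0.145) did not overlap either but was not called, while *Ly6g* (0.52, adjusted p = 0.539) and *S100a9* (0.38, adjusted p = 0.529) had positive log2 fold changes that were not called. Mast cell genes, mostly led by *Tpsb2*, summed to 11.2, 8.87 and 7.85 CPM in the unstimulated libraries, 10.6, 8.02 and 35.5 CPM with *E. coli*, 33.0, 15.9 and 15.0 CPM with IFN-γ and 40.2, 81.1 and 73.2 CPM with both stimuli. Of 2 genes tested, 1 was called higher with IFN-γ (15.6% of all genes) and 2 with both stimuli (23.9%), and *E. coli* library 3 again stood above the other *E. coli* libraries. With IL-4 the mast cell sums were 8.14 to 23.6 CPM, against 6.96 to 9.72 CPM in their unstimulated libraries. T cell genes summed to 22.7 CPM or less, dendritic cell genes to 17.9 CPM or less, mesothelial genes to 3.35 CPM or less and NK cell genes to 1.00 CPM or less. Of these lists *Xcr1*, of the dendritic cell list, was called higher with IL-4 (log2 fold change 1.34, adjusted p = 0.042), without overlap. *Eomes*, *Gzma* and *Klrb1c* were at 0 counts in the 12-library set, and *Klrb1c* and *Klre1* in the 6-library set. Of the mesothelial list *Krt19* and *Muc16* were at 0 in the former and *Krt8* and *Upk1b* in the latter, where *Siglech* of the dendritic cell list was also at 0. Fibroblast genes were at 6.42 CPM or less in the former set, with *Col1a1* and *Col6a1* at 0, and at 34.7 to 62.2 CPM in the 6-library set. The part of these cells in the levels of complement genes was not tested.

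The genes whose log2 CPM followed each complement gene most closely over the 12 libraries of the 12-library set were found by Pearson correlation among genes of at least 5 CPM. The libraries share their groups, so these values describe the pattern over 4 conditions and carry no test. *Serping1* was closest to *Clic5* (r = 0.988), *Pgm1* (0.983) and *Pafah1b3* (0.982). *C3* was closest to *Ctsb* (0.976) and *Vwa5a* (0.976), and *C1qb* to *Cav1* (0.969), *Ctsb* (0.968) and *Znfx1* (0.967). *Ctsb* thus stood near both *C3* and *C1qb*. *C4b* was closest to *Nrp2* (0.964), *Rfx1* (0.959) and *Il15ra* (0.959), and *Cd59a* to *Wdfy4* (0.961), *Rgl2* (0.953) and *Serpina11* (0.953). *Cfb* was closest to *Phf11d* (0.923), *Lgals8* (0.913) and *Fam20c* (0.902). *Cd55* was closest to *Timm44* (0.888), *Primpol* (0.836) and *Klhdc2* (0.823), *C1qa* to *Trf* (0.873), *Ifi209* (0.868) and *Ifi214* (0.856), and *Cfp* to *Msr1* (0.821), *Rap2b* (0.820) and *Vps45* (0.819).

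RefSeq promoter sequences (GRCm38.p6) were matched for 5 of the 9 genes, *C1qb*, *C3*, *Cfp*, *Cd55* and *Cd59a*; *C1qa*, *C4b*, *Cfb* and *Serping1* had no entry. The 250 bases before the start were searched on both strands for GAS (TTC and GAA with 3 bases between), the interferon-stimulated response element (GAAA and GAAA with 2 bases between), a kappa B form (GGG and TTCC with 3 bases between) and a STAT6 form (TTC and GAA with 4 bases between). Of all 32851 promoters 7.02%, 2.98%, 4.65% and 5.85% held them. The only match in the 5 genes was 1 interferon-stimulated response element in *Cd59a*, the gene that fell with IFN-γ, at -187 to -178 from the start. It is a match of letters and not a shown site, and it lies outside the 150 bases nearest the start. The promoters of *Cd59a* (chr2:104095551-104095800, plus strand), *C1qb* (chr4:136886201-136886450, minus strand) and *C3* (chr17:57228137-57228386, minus strand) are given because these genes changed with IFN-γ, 5′ to 3′ on the strand of the gene, with the match in capitals.
*Cd59a*: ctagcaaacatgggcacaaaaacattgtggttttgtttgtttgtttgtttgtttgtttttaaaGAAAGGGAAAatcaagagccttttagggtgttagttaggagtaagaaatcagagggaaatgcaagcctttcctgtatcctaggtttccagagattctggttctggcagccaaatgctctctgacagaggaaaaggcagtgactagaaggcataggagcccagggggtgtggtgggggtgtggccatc
*C1qb*: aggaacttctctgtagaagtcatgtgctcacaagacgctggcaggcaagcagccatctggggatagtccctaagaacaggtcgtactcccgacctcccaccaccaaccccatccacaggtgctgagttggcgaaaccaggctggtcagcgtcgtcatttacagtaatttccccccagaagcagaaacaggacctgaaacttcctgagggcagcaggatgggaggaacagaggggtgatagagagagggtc
*C3*: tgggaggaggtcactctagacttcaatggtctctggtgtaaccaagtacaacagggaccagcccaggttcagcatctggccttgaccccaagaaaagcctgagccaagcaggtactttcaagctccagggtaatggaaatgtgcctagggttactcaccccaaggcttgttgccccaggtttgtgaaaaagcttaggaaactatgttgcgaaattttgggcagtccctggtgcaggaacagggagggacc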

How the data were processed

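RNA of mouse eosinophils was measured by CEL-Seq2 in 18 libraries. The deposited values are counts per gene, which the authors made with fastp 0.20.1, STAR 2.7.2a or TopHat2 2.1.0 and HTSeq 0.6.1 on GRCm38; which aligner served which libraries, and whether molecular identifiers were collapsed, is not stated. Identifiers were matched to GENCODE for 98.3% and 99.7% of genes, and 18.9% to 37.6% of reads in the 12-library set lay on no gene. Counts were filtered by filterByExpr, scaled by TMM and tested with edgeR 4.0.16 (quasi-likelihood test, Benjamini-Hochberg adjustment) in R 4.3.3, with DESeq2 1.42.0 as an alternative. Standard errors are the log2 fold change over the root of F and approximate. Named are the 9 genes, other listed complement genes called with a stimulus at a mean of at least 3 CPM, and up to 3 genes most like each of the 9. *C1qc*, as the remaining C1q chain, and *C4a*, as a copy of *C4b*, were also named, although neither was called against unstimulated cells. Members and lists were chosen with earlier results of these data known. Alternatives were other scaling, no filter, a factor of 2, fewer or all libraries, the replicate block and each library left out.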

Additional observations from a re-analysis of the deposited data

How the results depend on the processing

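Outside leave-one-out, of the tests called 280 kept their side of the threshold over the alternatives and 16 lost it; of those not called 189 kept it, 10 passed and 5 changed sign. With 1 library left out the called tests kept it 371 times and lost it 109 times, and those not called kept it 339 times, passed 16 times and changed sign 23 times. The cause was not tested, except where fewer libraries or a stricter threshold made the change.

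With a factor of 2 also required, the genes called numbered 1023 for *E. coli*, 1187 for IFN-γ, 2210 for both stimuli, 478 for IL-4, 404 for both against IFN-γ, 1325 for both against *E. coli*, 1027 for IFN-γ against *E. coli*, 245 for the interaction and 2728 for the IL-4 response against that to both. Of the 9 complement genes it left 3 with IFN-γ, 3 with both and 2 with IL-4. DESeq2 called 1 with *E. coli*, and without a filter 1 was called in the interaction. For IL-4 against unstimulated, 1634 genes were called without a filter and 1892 in the model of all 18 libraries.

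Signs changed near 0. *Cd55* with *E. coli* was at 0.022 without a filter and 0.0031 in a fit of these groups alone, *C1qa* with both stimuli at 0.016 with DESeq2 size factors and 0.021 in DESeq2, and *Cfp* in both against *E. coli* at -0.0035 without a filter. *Cfp* with IFN-γ was at 194 CPM on plain totals against 203. Of 5 promoters 0 held a response element in 150 bases.

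Leaving out 1 library gave 1 to 5 complement genes with *E. coli*, 0 to 4 with IL-4 and 0 to 2 in the interaction. Over all genes it gave 2160 to 2753 for *E. coli*, 483 to 1394 for IL-4, 740 to 1122 for both against IFN-γ and 266 to 562 for the interaction.

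The log2 ranges that crossed 0 with 1 library left out were *C1qa* with both -0.23 to 0.12, *C1qb* in the interaction -0.057 to 0.65, *C1qc* with IL-4 -0.18 to 0.12, *C3* in both against IFN-γ -0.39 to 0.15, *Cd55* with *E. coli* -0.19 to 0.19, *Cd55* in IFN-γ against *E. coli* -0.18 to 0.0037. Others were *Cd55* with IFN-γ -0.26 to 0.12, *Cfp* with *E. coli* -0.44 to 0.035, *Cfp* in IFN-γ against *E. coli* -0.45 to 0.019, *Cfp* in both against *E. coli* -0.17 to 0.35, *Cfp* with both -0.27 to 0.11, *Serping1* in both against IFN-γ -0.13 to 0.37.

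With the replicate number as a block (replicate block), 8 of the 9 genes were tested, since *Cd59a* did not pass the filter in these 9 libraries. edgeR called 0 of them in both against IFN-γ (15.1% of the 9456 genes tested under the block; 1 at an unadjusted p under 0.05, and DESeq2 without the block called 0), 5 in both against *E. coli* (36.5%) and 4 in IFN-γ against *E. coli* (29.1%). Without the block 6 and 5 were called in the latter comparisons, *Cd59a* among them. Residuals of libraries with the same number correlated from -0.0163 to 0.173, 0.0706 to 0.163 and -0.0450 to 0.331 between pairs of stimuli, so the numbers were not taken as pairs. At these depths a gene at or under 3 counts in a group gives a bound only.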
